A study of Mus musculus with 10 samples.

Results

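The 9 genes described here, Tat, Tdo2, Hpd, Hgd, Fah, Hal, Uroc1, Sds and Gls2, encode enzymes that break down amino acids in hepatocytes, the parenchymal cells of the liver. They were listed by name from the pathways of tyrosine and phenylalanine, tryptophan, histidine, serine and glutamine, and make up 9 of the 55385 gene identifiers in the count table. All 9 were found in the table and all 9 passed the filter on low counts, which left 14200 genes to test.

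The comparison is between 2 groups of 2 RNA-seq libraries made from hepatocytes of mouse liver, on a mixed C57BL/6J 129SV background. All 4 libraries came from mice with a floxed Ep300 gene, which encodes a histone acetyltransferase and transcriptional coactivator. All had received a diet with DDC, a compound that disturbs heme synthesis and injures hepatocytes and bile ducts, and the pT3-cMet plasmid by hydrodynamic tail vein injection, a treatment the labels give as 5 months long. The EP300 KO group (genotype EP300-/- in the labels) had also received a virus in which the TBG promoter, active in hepatocytes, drives Cre, and the EP300 WT group (EP300f/f) the same kind of virus with GFP. Liver cells were perfused and sorted, and HCC (hepatocellular carcinoma) stands in each library title. The labels speak of pooled sequencing and tie no library to an animal, so the spread behind each p-value is that of libraries and may be technical.

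The libraries held 18575701 and 18831671 counts in the WT group and 17709799 and 17811489 in the KO group. Ep300, the targeted gene, was at 62.3 and 57.9 CPM (reads of a gene relative to the TMM-scaled library size) in the WT group and 73.7 and 72.3 CPM in the KO group. It was thus higher in the libraries labelled KO (log2 fold change 0.28, SE 0.07, edgeR adjusted p = 0.00498), a call that was lost without EP300 WT replicate 2 (edgeR adjusted p = 0.128). A count over the whole gene cannot show whether an exon was deleted, and every comparison here follows the labels. Xist, the noncoding RNA of X inactivation, had 3 and 2 counts in the libraries labelled WT and 2310 and 1411 in those labelled KO. In the same order of libraries, the summed level of 4 Y-linked genes was 123 and 119 CPM in WT and 124 and 107 CPM in KO. The libraries labelled KO and WT therefore also differ in a transcript of female cells, and its part in the results cannot be told apart from that of the label.

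Amino acids that are not used for protein are broken down mainly in the liver, where the amino group is removed and the carbon skeleton enters gluconeogenesis, ketone synthesis or the citric acid cycle. Several of these enzymes are classical markers of the mature hepatocyte and are induced by glucocorticoids, glucagon and protein intake. Histidase, serine dehydratase and liver glutaminase are known for higher levels in periportal hepatocytes, which receive the amino acids of the portal blood, whereas glutamine synthetase is restricted to a rim of hepatocytes around the central vein.

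In the libraries labelled EP300 KO, 8 of the 9 genes were higher, by 1.17-fold (Fah) to 2.22-fold (Hal), and 0 were lower. The test was edgeR's quasi-likelihood test over all genes, with an adjusted p below 0.05. Over all 14200 genes tested, 16.7% were called higher and 17.5% lower, shares that also apply beside the counts for each list below. Among the 629 genes whose mean CPM over the 4 libraries, not divided by length, was at least that of the lowest of the 9, a comparison chosen after the values were seen, 49.9% were called higher and 23.5% lower. The median log2 fold change of the 9 genes was 0.78, against -0.01 over all genes tested. Hgd was the gene that did not pass. Both KO libraries stood above both WT libraries for all 9 genes, a pattern that 32.9% of all tested genes shared. Together the 9 genes had 98181 and 99604 counts in the WT libraries and 152600 and 142098 in the KO libraries, which held fewer counts in all.

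**Figure D1:**
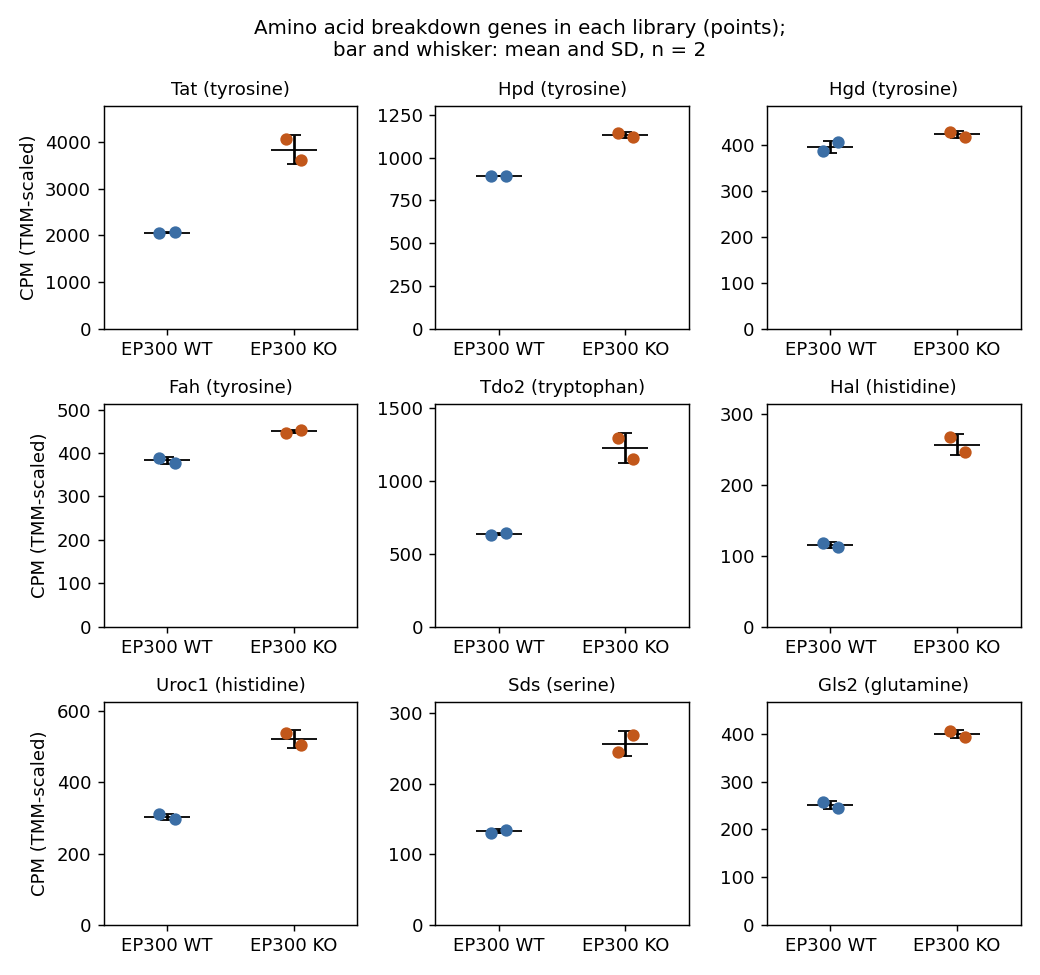
Level of each gene in CPM (vertical axes from 0) in the 2 libraries of EP300 WT (blue) and of EP300 KO (orange), with the mean and SD (n = 2). The points of the groups are well apart for Tat, Tdo2, Hal, Uroc1, Sds and Gls2 and lie closest for Hgd, from 387 and 406 CPM in WT to 419 and 429 CPM in KO.

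RefSeq promoter windows on GRCm38.p6 matched 7 of the 9 genes. The 250 bases before the start are shown for Tat, the most abundant of the 9, for Hal, which had the largest rise, and for Hgd, which did not pass, all on the plus strand and written 5′ to 3′. They lie at chr8:109990186-109990435 (Tat), chr10:93488518-93488767 (Hal) and chr16:37579903-37580152 (Hgd). Capitals mark matches, on either strand, to CCAAT (the CCAAT box), TATAA (the TATA box) and TTGCNNAA (a form of the C/EBP site).
Tat: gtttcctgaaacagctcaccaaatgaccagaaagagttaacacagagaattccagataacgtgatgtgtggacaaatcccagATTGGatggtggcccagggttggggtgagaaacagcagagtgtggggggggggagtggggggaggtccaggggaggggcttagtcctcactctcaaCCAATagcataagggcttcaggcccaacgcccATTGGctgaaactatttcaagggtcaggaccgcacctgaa
Hal: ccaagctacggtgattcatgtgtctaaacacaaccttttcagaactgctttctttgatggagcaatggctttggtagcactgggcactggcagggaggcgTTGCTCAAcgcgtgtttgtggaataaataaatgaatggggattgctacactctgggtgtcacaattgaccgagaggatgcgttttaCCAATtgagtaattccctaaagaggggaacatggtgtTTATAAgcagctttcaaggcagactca
Hgd: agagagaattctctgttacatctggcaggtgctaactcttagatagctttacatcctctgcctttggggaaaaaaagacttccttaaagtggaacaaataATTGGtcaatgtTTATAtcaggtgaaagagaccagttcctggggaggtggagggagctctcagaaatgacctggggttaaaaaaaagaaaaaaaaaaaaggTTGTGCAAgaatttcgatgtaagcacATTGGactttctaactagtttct
A CCAAT box was found in 5 of the 7 windows (Tat, Tdo2, Hal, Uroc1 and Hgd) and in 33.8% of all 32851 windows of this length. A TATA box was found in 3 of the 7 (Tdo2, Hal and Hgd) and in 22.8% of all windows. In Hal it lay 27 to 22 bases before the start, where the matches on both strands overlap. In Hgd (138 to 134 bases before the start) and Tdo2 (229 to 225) it lay much further away. The windows of Tdo2 and Fah lie inside these genes as GENCODE places them. The C/EBP form was found in Hal (150 to 143 bases before the start) and in Hgd (49 to 42 bases before the start), and in 9.56% of all windows. Matches to TGTTTAC (FOXA), TGACG (the core of a CRE), TGTTCT (an arm of the glucocorticoid response element) and CAAAGTCCA (HNF4) were found in 0 of the 7 windows and in 3.17%, 17.8%, 16.1% and 0.384% of all windows. Sites further than 250 bases from the start were not searched, so their absence here does not speak to control by these factors. Hgd thus held the same 3 kinds of match as Hal, at other positions.

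In tyrosine breakdown the largest rise in transcript level was that of the enzyme at its entry. Tat (chromosome 8, 109990437 to 109999803, mm10) encodes tyrosine aminotransferase, which removes the amino group of tyrosine. It stood at 2051 and 2068 CPM in WT and at 4057 and 3611 CPM in KO. Both KO libraries were far above both WT libraries, and the KO libraries were further apart from each other than the WT libraries were. The log2 fold change was 0.90 (SE 0.05, 95% interval 0.78 to 1.01, edgeR adjusted p = 2.99e-09), a fold of 1.86.

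Hpd (chromosome 5, 123171807 to 123182727) encodes the dioxygenase that turns the product of Tat into homogentisate. It stood at 895 and 893 CPM in WT and at 1143 and 1120 CPM in KO. The groups did not overlap, and the libraries within each were close together. Hpd rose by 0.34 on the log2 scale (SE 0.05, 95% interval 0.23 to 0.45, edgeR adjusted p = 6.09e-05).

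Hgd (chromosome 16, 37580153 to 37632020) encodes homogentisate dioxygenase, the enzyme lacking in alkaptonuria. It stood at 387 and 406 CPM in WT and at 429 and 419 CPM in KO. The gap between the groups, from 406 to 419 CPM, was narrower than the distance between the WT libraries. Its log2 fold change of 0.10 did not pass (SE 0.06, 95% interval -0.02 to 0.21, edgeR adjusted p = 0.205), and the upper end of that interval lies below the lower ends of those of Tat and Hpd. It passed without EP300 KO replicate 2 (0.12, edgeR adjusted p = 0.0481).

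Fah (chromosome 7, 84585159 to 84606722) encodes fumarylacetoacetate hydrolase, the last enzyme of the pathway, whose loss causes hereditary tyrosinemia. It stood at 389 and 378 CPM in WT and at 447 and 452 CPM in KO. The groups did not overlap. Fah rose by 0.23 on the log2 scale (SE 0.05, 95% interval 0.11 to 0.34, edgeR adjusted p = 0.00353). Fah lost its call without EP300 WT replicate 1 (edgeR adjusted p = 0.0647) or without EP300 WT replicate 2 (edgeR adjusted p = 0.113).

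Of the 4 other genes on the list of this pathway, 2 rose and 0 fell. Qdpr, which regenerates the cofactor tetrahydrobiopterin, rose by 0.50 on the log2 scale (SE 0.06, with 18.6% of exon bases shared). Gstz1, the isomerase between Hgd and Fah, rose by 0.45 (SE 0.05, 12.2% of exon bases shared). Per kilobase of exon, Tat was the most abundant of the 5 enzymes from Tat to Fah in both groups, at 853 and 860 CPM per kilobase in WT and at 1687 and 1502 in KO. Gstz1 was the least abundant, at 62.7 and 60.6 CPM per kilobase in WT and at 85.2 and 83.7 in KO. The ratio of Tat to Hpd per kilobase was 2.03 and 2.05 in WT and 3.14 and 2.85 in KO.

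**Figure D2:**
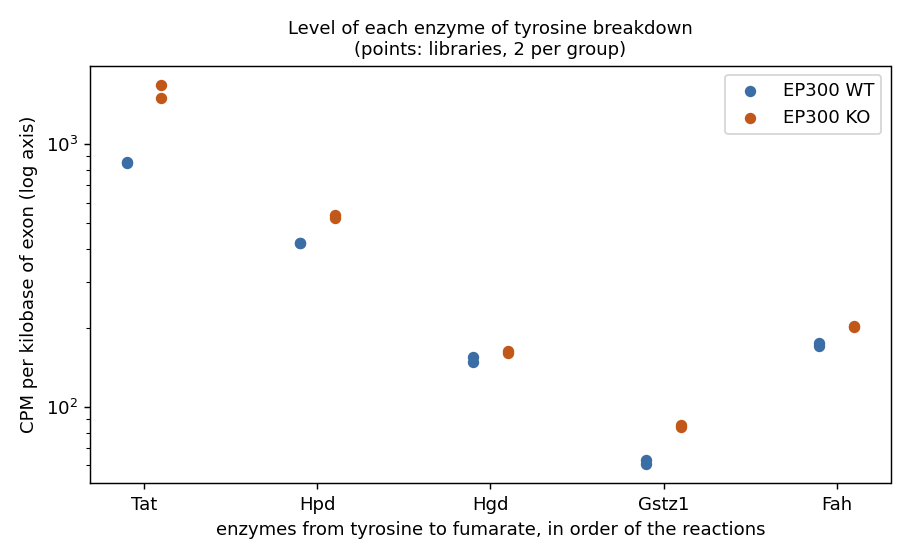
Level per kilobase of exon (log axis) of 5 enzymes in the order of their reactions, from Tat to Fah, in each library of EP300 WT (blue) and EP300 KO (orange). Tat is the highest point in every library, and the gap between the groups is wider for Tat than for Hpd, Hgd or Fah.

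Transcripts of tryptophan breakdown were higher along most of the kynurenine pathway. Tdo2 (chromosome 3, 81957090 to 81976202) encodes tryptophan dioxygenase, the hepatic enzyme that opens the indole ring. It stood at 631 and 641 CPM in WT and at 1298 and 1151 CPM in KO. As for Tat, the KO libraries lay far above the WT libraries, with replicate 1 the higher. Tdo2 rose by 0.94 on the log2 scale (SE 0.06, 95% interval 0.82 to 1.07, edgeR adjusted p = 4.32e-09). The other enzymes of the same reaction are Ido1 and Ido2, the indoleamine dioxygenases. Ido1 had 0 and 0 counts in WT and 1 and 3 counts in KO, too few to test. Ido2 rose from 31.5 and 32.5 CPM in WT to 69.2 and 68.6 CPM in KO, or by 1.10 on the log2 scale (SE 0.07, edgeR adjusted p = 7.66e-09). Per kilobase, Tdo2 was 18.8 and 18.5 times as abundant as Ido2 in WT and 17.6 and 15.7 times in KO.

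Of the 11 other kynurenine pathway genes tested, 8 rose and 2 fell. Besides Ido2, the largest rises were in Aadat, an aminotransferase of kynurenine and of the lysine product aminoadipate (1.13, SE 0.09), and Gcdh, glutaryl-CoA dehydrogenase (0.86, SE 0.06). The 2 that fell (chosen after seeing their values) were Acmsd, which steers the pathway away from NAD synthesis (-0.64, SE 0.11), and the kynurenine aminotransferase Kyat1 (-0.27, SE 0.06). The call of Kyat1 ended without EP300 WT replicate 1 (edgeR adjusted p = 0.0545) or 2 (edgeR adjusted p = 0.159) and without a filter (edgeR adjusted p = 0.0633).

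Transcripts of histidine breakdown rose at each of its 4 steps. Hal (chromosome 10, 93488768 to 93519304) encodes histidase, which removes ammonia from histidine to give urocanate. It stood at 118 and 113 CPM in WT and at 268 and 246 CPM in KO. It had the largest rise of the 9 genes, 1.15 on the log2 scale (SE 0.06, 95% interval 1.02 to 1.29, edgeR adjusted p = 9.20e-10), and was the 1 member called at least 2-fold higher, as 3.15% of all tested genes were. Uroc1 (chromosome 6, 90333284 to 90364551) encodes urocanase, the next enzyme. It stood at 310 and 297 CPM in WT and at 539 and 504 CPM in KO, with no overlap. Its log2 fold change was 0.78 (SE 0.06, 95% interval 0.66 to 0.90, edgeR adjusted p = 2.85e-08). The ratio of Hal to Uroc1 per kilobase was 0.239 and 0.237 in WT and 0.311 and 0.306 in KO.

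The following 2 steps moved the same way, and of the 3 other genes on the histidine list 2 rose and 0 fell. Amdhd1, imidazolonepropionase, rose by 0.69 (SE 0.07), and Ftcd, which passes the remaining one-carbon unit to folate, rose by 0.90 (SE 0.06), both log2 fold changes.

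Transcripts of the serine dehydratases rose while those of serine synthesis fell. Sds (chromosome 5, 120476526 to 120483932) encodes serine dehydratase, which turns serine into pyruvate and ammonia. It stood at 131 and 135 CPM in WT and at 245 and 270 CPM in KO. Unlike Tat, Tdo2 and Hal, replicate 2 was the higher KO library. The log2 fold change was 0.95 (SE 0.06, 95% interval 0.82 to 1.09, edgeR adjusted p = 8.47e-09). Of its exon bases, 29.6% overlap Plbd2 or Gm15690 on the opposite strand, and the library kit does not mark strand, so reads there cannot be told apart. Plbd2 had a log2 fold change of 0.38, and Gm15690, with 45 to 130 counts per library, one of 1.47. Sdsl, the related serine dehydratase-like enzyme, rose by 0.39 (SE 0.09, edgeR adjusted p = 0.00330), a call that ended without EP300 WT replicate 1 (edgeR adjusted p = 0.102) and without a filter (edgeR adjusted p = 0.0583). The ratio of Sds to Sdsl per kilobase was 5.16 and 4.79 in WT and 7.22 and 7.43 in KO.

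Of 12 other genes tested for serine, glycine and threonine, 8 rose and 1 fell. Dmgdh and Sardh, which strip methyl groups from dimethylglycine and sarcosine, rose by 0.99 (SE 0.06) and 0.86 (SE 0.06), and the serine racemase Srr by 0.62 (SE 0.09, 30.0% of exon bases shared). The gene that fell, chosen after seeing its values, was the cytosolic Shmt1 (-0.25, SE 0.06). Its call ended without EP300 WT replicate 1 (edgeR adjusted p = 0.0657) or 2 (edgeR adjusted p = 0.166) and without a filter (edgeR adjusted p = 0.0581). The synthesis genes stood at low levels, and 3 of 3 fell. Phgdh, which starts serine synthesis, was at 14.8 and 12.9 CPM in WT and at 2.14 and 2.36 CPM in KO (log2 fold change -2.62, SE 0.17). Psat1, the next enzyme, was at 16.1 and 16.9 CPM in WT and at 3.82 and 4.20 CPM in KO (-2.04, SE 0.14). The ratio of Sds to Phgdh per kilobase was 13.0 and 15.4 in WT and 168 and 168 in KO.

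The transcript of liver glutaminase rose while that of glutamine synthetase fell. Gls2 (chromosome 10, 128194457 to 128210004) encodes liver glutaminase, which releases ammonia from glutamine. It stood at 257 and 245 CPM in WT and at 406 and 394 CPM in KO, with no overlap. Gls2 rose by 0.67 on the log2 scale (SE 0.06, 95% interval 0.55 to 0.79, edgeR adjusted p = 1.45e-07). Of its exon bases, 2.79% overlap Spryd4 on the opposite strand, which did not pass (0.02, edgeR adjusted p = 0.889). Glul, glutamine synthetase, fell from 1439 and 1436 CPM in WT to 375 and 372 CPM in KO, at -1.94 on the log2 scale (SE 0.05, edgeR adjusted p = 1.44e-13). Per kilobase, Gls2 stood at 0.171 and 0.163 of the level of Glul in WT and at 1.04 and 1.01 in KO.

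Of 10 other genes of glutamine, glutamate, proline and alanine tested, 4 rose and 2 fell, against 16.7% and 17.5% of all genes tested. Prodh, proline dehydrogenase, rose by 0.52 (SE 0.06). Oat, ornithine aminotransferase, fell by 1.21 (SE 0.08), from 469 and 477 CPM in WT to 227 and 183 CPM in KO, and Glud1, glutamate dehydrogenase, fell by 0.38 (SE 0.05), all log2 fold changes. Oat, Glul and the glutamate transporter Slc1a2 are known for higher levels in pericentral hepatocytes. They were named together after their values were seen, and a change between liver zones was not tested.

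**Figure D3:**
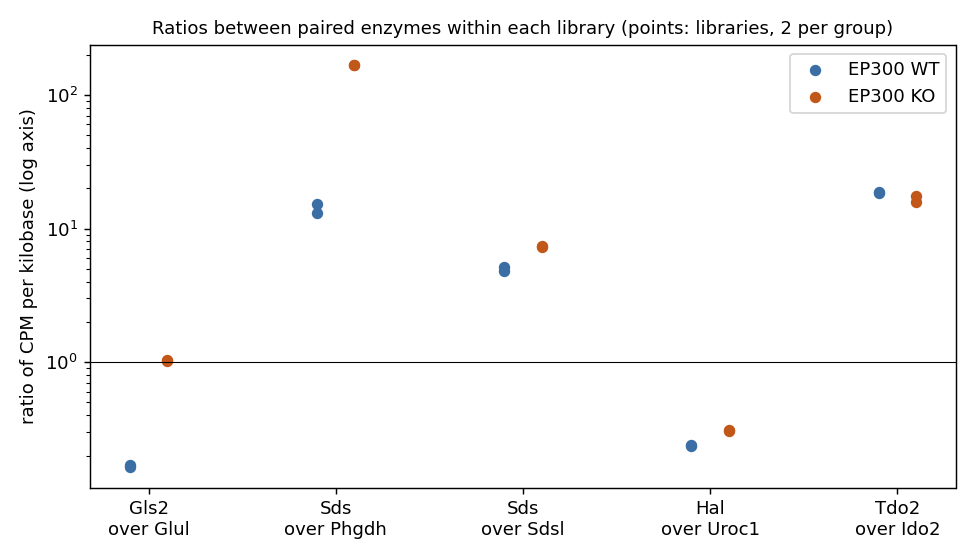
Ratio of the levels per kilobase of 2 enzymes within a library (log axis, line at 1), in EP300 WT (blue) and EP300 KO (orange). The ratio of Gls2 to Glul is 0.171 and 0.163 in WT and 1.04 and 1.01 in KO, and among the pairs drawn that of Tdo2 to Ido2 differs least between the groups.

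Per kilobase of exon, the levels of the 9 genes in WT ran in the order Tat, Hpd, Fah, Tdo2, Hgd, Uroc1, Sds, Gls2 and Hal, from 856 down to 20.8 CPM per kilobase on average. In KO the order was Tat, Hpd, Tdo2, Fah, Hgd, Sds, Uroc1, Gls2 and Hal, from 1594 down to 46.3. Neighbours in these orders did not overlap over their libraries, except Sds and Uroc1 in KO. Tdo2 passed Fah, also with the longest transcript as the length in place of all exons. Sds drew level with Uroc1 per kilobase of all exons, but with the longest transcript it stood above Uroc1 in both groups, at 103 against 87.7 in WT and 199.6 against 151 in KO on average. With that length Uroc1 also stood below Gls2 in both groups, and Hgd above Tdo2 in WT. On the level per kilobase of all exons, the 9 genes were above the 88th percentile of tested genes in WT. The coefficient of variation between the 2 libraries of a group ran from 0.114% to 3.59% in WT and from 0.845% to 8.47% in KO, where Tat and Tdo2 varied most.

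Among genes with a mean of at least 10 CPM that are not among the 9, the profile over the 4 libraries closest to the mean profile of the 9 genes belonged to Slc25a47 (log2 fold change 0.67), Spout1 (0.71) and Dusp1 (0.68). Likeness was measured as the Euclidean distance between centred log2 CPM profiles, 0.0251, 0.0256 and 0.0318, over 8090 genes. With 4 libraries in 2 groups, such a profile holds little beyond the difference between the groups.

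For the amino acids that none of the 9 genes breaks down (branched-chain amino acids, lysine, methionine and cysteine), 27 of 37 genes tested rose and 1 fell. Over all genes tested 16.7% rose and 17.5% fell. Among the 629 abundant genes above, 49.9% rose and 23.5% fell, but most of these 37 are less abundant and do not belong to them. The median log2 fold change of the 37 was 0.46, against -0.01 over all genes tested. Together with the remaining genes of the pathways described above, the 8 lists held 77 tested genes besides the 9, of which 51 rose and 6 fell (median 0.38). For branched-chain amino acids 16 of 22 rose and 0 fell (median 0.42). The largest rises were in Acadsb, a branched-chain acyl-CoA dehydrogenase (0.82, SE 0.08), Hibadh (0.70, SE 0.06) and Aldh6a1 (0.67, SE 0.07, 18.6% of exon bases shared), both of valine breakdown. Those subunits of the branched-chain ketoacid dehydrogenase that are on the branched-chain list were chosen after seeing their values. They were at 0.24 (Bckdha, edgeR adjusted p = 0.0156), -0.07 (Bckdhb, edgeR adjusted p = 0.427) and -0.06 (Dbt, edgeR adjusted p = 0.558). The call of Bckdha ended without EP300 WT replicate 1 (edgeR adjusted p = 0.233) or 2 (edgeR adjusted p = 0.0675), with DESeq2 (adjusted p = 0.0583), with library size scaling (edgeR adjusted p = 0.0705) and without a filter (edgeR adjusted p = 0.0947).

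For lysine 3 of 3 rose, Dhtkd1 by 0.75 (SE 0.07), Aass, the enzyme that starts lysine breakdown, by 0.71 (SE 0.06) and Aldh7a1 by 0.59 (SE 0.05). For methionine and cysteine 8 of 12 rose and 1 fell (median 0.36). Bhmt, which remethylates homocysteine with betaine, rose from 645 and 642 CPM in WT to 1538 and 1362 CPM in KO (1.17, SE 0.06). Its reaction forms methionine, so this list is not limited to breakdown. Bhmt is counted among the genes that rose, here and in the combined counts. Suox, sulfite oxidase, rose by 0.92 (SE 0.08) and Ethe1, a persulfide dioxygenase, by 0.71 (SE 0.09). The gene that fell, chosen after seeing its values, was Cdo1, cysteine dioxygenase (-0.18, SE 0.05), and its call ended without EP300 WT replicate 1 (edgeR adjusted p = 0.213) or 2 (edgeR adjusted p = 0.234) and without a filter (edgeR adjusted p = 0.0963).

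**Figure D4:**
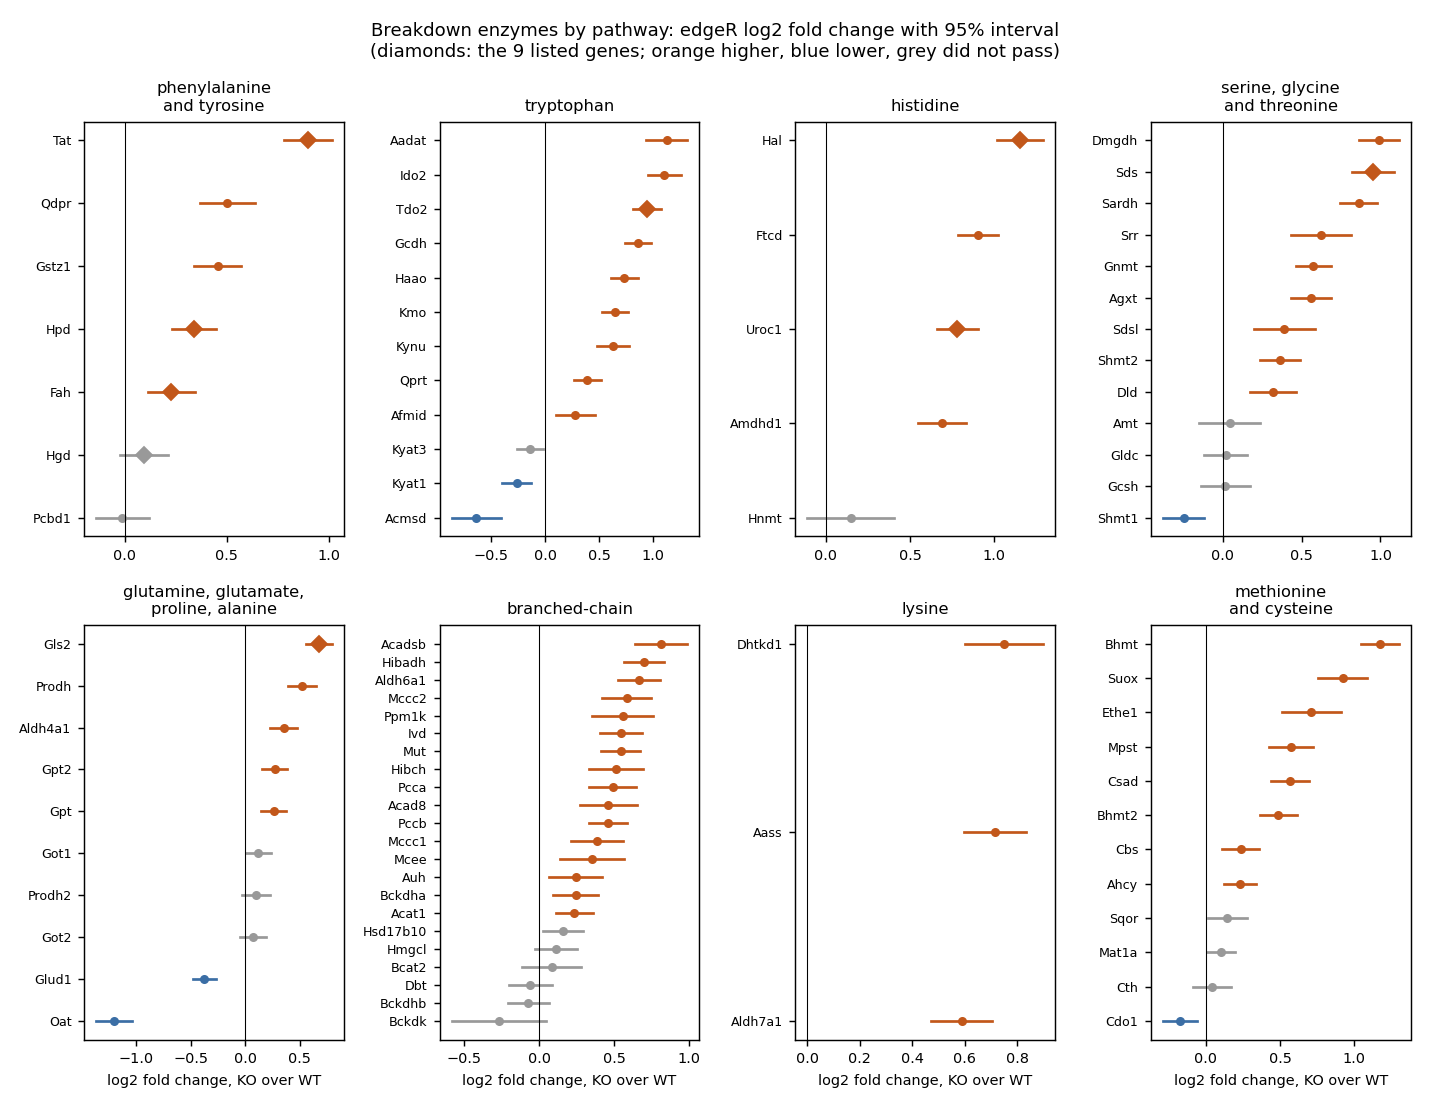
Log2 fold change of EP300 KO over EP300 WT with its 95% interval for tested genes of the 8 pathway lists, with 1 panel per list and axes that differ between panels. Diamonds are the 9 genes, and orange, blue and grey mark higher, lower and not passing; 8 diamonds are orange and that of Hgd is grey.

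Among 16 amino acid transporters, 8 rose and 2 fell, against 16.7% and 17.5% of all genes tested. The largest changes were the falls of Slc1a5, a glutamine carrier, from 30.7 and 28.6 CPM in WT to 10.1 and 7.64 CPM in KO (-1.74, SE 0.12), and of Slc1a2 (-1.36, SE 0.07), and the rise of Slc3a1, a subunit of a cystine carrier (0.91, SE 0.10, 26.5% of exon bases shared). Slc38a3, the main system N carrier of glutamine and histidine in liver, was chosen after seeing its values. It rose from 1294 and 1211 CPM in WT to 2160 and 2037 CPM in KO (0.74, SE 0.05).

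Among 18 hormonal and transcriptional regulators, 6 rose and 4 fell (median 0.09), against 16.7% and 17.5% of all genes tested. Cebpb, a C/EBP factor, stood at 119 and 122 CPM in WT and at 240 and 322 CPM in KO (1.22, SE 0.10, 20.7% of exon bases shared). Creb3l3, a CREB-like factor of liver, rose by 0.61 (SE 0.05), and Klf15, a factor known to promote amino acid breakdown, by 0.55 (SE 0.06). The 4 that fell (chosen after seeing their values) were Foxa3 (-0.50), the coactivator Ppargc1a (-0.48), the glucocorticoid receptor gene Nr3c1 (-0.29) and Creb1 (-0.27). The calls of Ppargc1a (edgeR adjusted p = 0.0838 and 0.0813), Nr3c1 (0.0569 and 0.0911) and Creb1 (0.187 and 0.231) ended without EP300 WT replicate 1 or 2, those of Ppargc1a (0.0770) and Creb1 (0.0913) without a filter, and that of Creb1 also without EP300 KO replicate 1 (0.0777) or 2 (0.0620) and with DESeq2 (0.225). In gluconeogenesis, which takes up the carbon of these pathways, 3 of 4 genes rose and 0 fell. Pck1, which makes phosphoenolpyruvate, rose from 3327 and 3245 CPM in WT to 5340 and 5301 CPM in KO (0.70, SE 0.04), and G6pc, glucose 6-phosphatase, by 0.73 (SE 0.06).

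**Figure D5:**
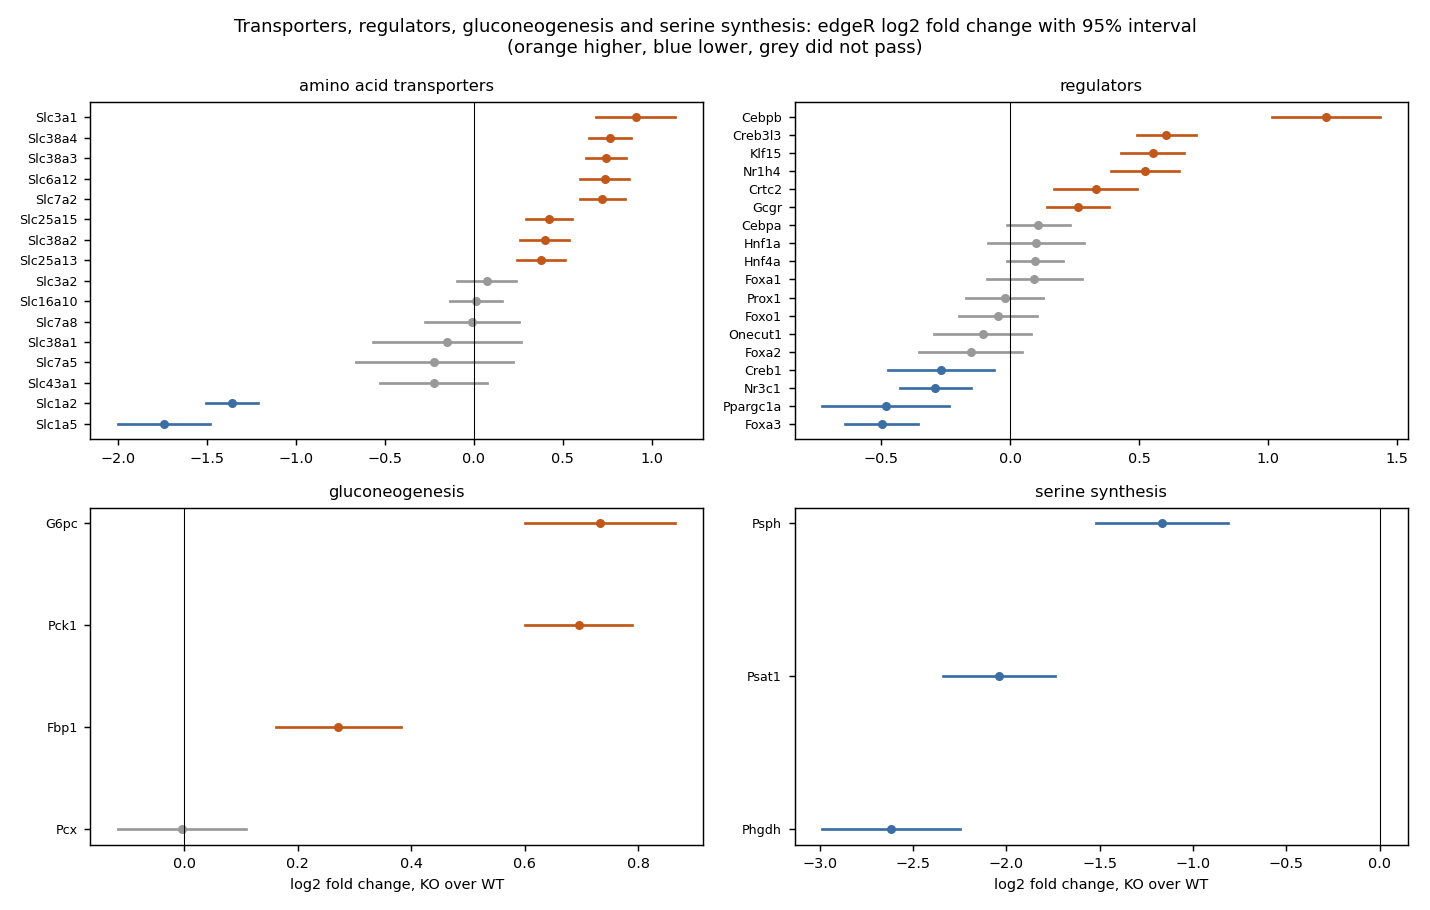
Log2 fold change of EP300 KO over EP300 WT with its 95% interval for amino acid transporters, regulators, gluconeogenesis and serine synthesis (axes differ between panels; orange higher, blue lower, grey not passing). All 3 serine synthesis genes lie below 0, while the transporters and regulators lie on both sides.

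Markers of hepatocytes were abundant in all 4 libraries. Of 10 hepatocyte markers 3 rose and 4 fell (median log2 fold change 0.10). Their summed level was 147112 to 148192 CPM in WT and 123606 to 129814 CPM in KO. The lower sum lay mainly in Trf, with 63.5% of exon bases shared, at 37367 CPM in WT and 25078 CPM in KO on average. Falls in Apoa1 (15720 and 9910 CPM) and Alb (78219 and 72611 CPM) came next, and the 3 markers that rose offset part of the falls. Markers of other cell types had lower sums in KO for each of 6 lists. Biliary markers summed to 138 to 139 CPM in WT and 104 CPM in KO (2 of 4 tested fell, Spp1 and Sox9). Most of that sum was Spp1, at 127 CPM in WT and 95.7 CPM in KO on average (18.8% of exon bases shared). Krt19 (0.602 CPM in WT and 0.634 CPM in KO) and Epcam (1.33 CPM in both) were low and did not pass. Macrophage markers summed to 565 to 566 and 509 to 513 CPM (1 of 7 fell and 2 rose). The lower sum rested on Cd5l, which fell by 0.69 on the log2 scale (SE 0.06), since without it the sum was 309 to 313 CPM in WT and 351 to 356 CPM in KO. Marco rose from 5.37 and 6.08 CPM in WT to 41.1 and 27.8 CPM in KO (2.59, SE 0.17). Endothelial markers summed to 230 to 234 and 183 to 206 CPM (3 of 6 fell). Stellate and fibroblast markers summed to 258 to 262 and 160 to 165 CPM (3 of 6 fell). Most of that gap was in Reln, and without it the sum was 143 to 145 CPM in WT and 127 to 134 CPM in KO. Cd5l, Marco and Reln were singled out after their values were seen, as were the hepatocyte and biliary markers named here. Lymphocyte markers summed to 23.2 to 24.3 and 16.6 to 18.5 CPM (Ptprc, the 1 tested, fell), and neutrophil markers to 14.5 to 16.1 and 9.43 to 11.4 CPM (2 of 4 tested fell). None of these markers was at 0 in all libraries. Several of these calls were lost in at least 1 of the alternative settings given below. Among stellate and fibroblast markers only the call of Reln held in each, and among neutrophil markers none did. Those of Ptprc and Alb were lost in some, as were other calls of the hepatocyte, macrophage and endothelial lists. Those of Trf, Apoa1, Spp1, Sox9, Cd5l and Marco held wherever they were tested. The part of these differences in the rise of the 9 genes was not tested, and in bulk libraries a change in the share of cells of a type cannot be told apart from a change in RNA per cell.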

How the data were processed

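Counts of reads per gene were deposited as whole numbers in 1 table for the EP300 experiment, per the file header, and the authors gave no normalization in it. Per the submitters' processing notes, the tools were STAR, HTSeq and DESeq2 and the build was mm10, with no role given. The name of the deposited table mentions Hisat, another aligner, so the aligner behind these counts is not settled. Aligner settings, annotation and strand setting are not given in the sources used here. Of 55385 identifiers, 55144 matched GENCODE M21 on the same build, which gave symbols, positions and exon lengths. A further 4 columns of the table match no sample here and were left aside, and the tables of the diet experiment were not analysed here.

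The 2 EP300 KO and 2 EP300 WT libraries were compared with edgeR 4.0.16 in R 4.3.3 by its quasi-likelihood test. The model held group alone and left 2 residual degrees of freedom. The test shares information on variance across genes. Its p-values and the 95% intervals therefore rest on more degrees of freedom than the libraries alone give. Scaling was by TMM, low genes were removed by filterByExpr (minimum count 10), and p-values were adjusted by Benjamini-Hochberg over all 14200 genes tested, with a threshold of 0.05. Standard errors were derived from the fold change and its F statistic. CPM were scaled to the TMM-adjusted library size, and CPM per kilobase used the union of exons. Profiles were compared as log2 CPM with 0.5 added. The common coefficient of variation between libraries was 5.47%. Libraries of a group differed by more than sampling noise (chi-square per degree of freedom 5.78 in KO and 2.70 in WT).

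The 9 genes and the lists were chosen with earlier results of these data known. Besides the 9 genes, the text names up to 3 passing genes with the largest change per list of breakdown enzymes, transporters and regulators, and the enzymes of the same or the opposing reaction. Of 183 listed genes 182 matched 1 identifier, and Gcat, with more than 1, was left out. Some genes of the lists are counted but not reported by name here. The tests were tried on simulated counts. Alternatives were DESeq2 1.42.0, limma-voom (limma 3.58.1), other scalings and filters, leaving out the 20 most abundant genes, a block for the replicate number, each library left out, and the longest transcript as length.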

Additional observations from a re-analysis of the deposited data

How the results depend on the processing

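Tat, Tdo2, Hpd, Hal, Uroc1, Sds and Gls2 kept their direction and their call in all 12 alternatives. The log2 fold change ran from 0.82 to 0.98 for Tat, from 0.87 to 1.03 for Tdo2, from 1.09 to 1.22 for Hal, from 0.71 to 0.83 for Uroc1, from 0.89 to 1.03 for Sds, from 0.61 to 0.71 for Gls2 and from 0.27 to 0.36 for Hpd, whose edgeR adjusted p reached at most 0.0246. Fah kept its direction (0.16 to 0.26) and lost its call as given above. Hgd (0.03 to 0.14) passed without EP300 KO replicate 2 (edgeR adjusted p = 0.0481). With a library left out, 7 to 9 of the 9 genes and 40 to 54 of the other breakdown genes were called higher, and 3 to 7 of the latter lower. Over all genes 1160 to 2574 were then called higher and 1146 to 2580 lower, against 2366 and 2485 with all libraries. The lowest of these counts came without EP300 WT replicate 2 (1160 higher and 1146 lower) and, next, without EP300 WT replicate 1 (1280 and 1322). Where a group is left with 1 library, that library is assumed to vary like those of the other group. Without a filter the counts were 1416 and 1287, with 3 other breakdown genes lower, and with DESeq2 1614 genes were lower. Library size scaling moved the median of all genes to -0.07, with 1846 genes higher and 3056 lower. Of the 51 other breakdown genes called higher, 38 kept the call in every alternative, as did 3 of the 6 called lower. The replicate numbers share no stated source, and the deviations of same-numbered libraries correlated at 0.00413 over genes. With the replicate block, 2526 genes were higher and 2664 lower, and 8 of the 9 genes, 51 other breakdown genes higher and 6 lower, as without it. Ratios between genes are given as values and were not tested.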
